A study of Mus musculus with 8 samples.

Results

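The SLC22 genes encode membrane carriers that move small organic ions, among them drugs, urate, hormone conjugates and carnitine, across the plasma membrane. Described here are 9 of them, *Slc22a2*, *Slc22a4*, *Slc22a5*, *Slc22a6*, *Slc22a7*, *Slc22a8*, *Slc22a12*, *Slc22a13* and *Slc22a19*, which were chosen by name, with earlier results of these data known. The count table held all 9 members, among 25 *Slc22* genes and 32285 genes in all. Kidneys of 4 male embryos at E17.5, the stage in the sample labels (the methods of the study name a later embryonic day), were dissociated, tagged by mouse with cell multiplexing oligonucleotides (CMOs) and sequenced as a single pool of cells. Mice 1 and 2 were *Trim28*Δ/Δ, with both copies of the floxed *Trim28* gene deleted by the *Six2*-EGFP/cre transgene (Six2-cre), and mice 3 and 4 were *Trim28*f/f controls, which carry the floxed alleles undeleted. Six2-cre is active in nephron progenitors, so that the nephron epithelium derives from recombined cells, whereas stroma, endothelium, immune cells and collecting duct do not. Each mouse counted as 1 replicate, and whether the mice were littermates was not given in the sources used here.

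In the kidney, organic ions are taken from the blood into proximal tubule cells by basolateral SLC22 carriers and leave into the urine through apical exporters, and urate and carnitine are taken back from the filtrate by apical SLC22 carriers. Organic anion carriers exchange their substrate for intracellular dicarboxylates, cation carriers are driven by the membrane potential, and carnitine uptake by OCTN2 is coupled to sodium. The genes of these carriers are switched on as nephron epithelium matures into proximal tubule, and the nuclear receptor HNF4A is a known regulator of many of them.

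In total, 7357 cells were assigned to a mouse, between 1322 and 2695 per mouse, with a median of 16507 to 17299 unique molecular identifiers (UMIs) per cell. Clusters were named only from fixed marker genes and are therefore called proximal tubule (PT)-like, early proximal tubule (ErPT)-like and so on. The members were kept out of the genes used for clustering. The PT-like class was a single cluster of 862 cells, 267, 275, 145 and 175 from mice 1 to 4, in which all 9 PT markers were raised. The ErPT-like class held 798 cells, 83, 126, 430 and 159 by mouse. Levels are given in CPM, the UMIs of a gene per 1000000 UMIs of the summed cells. The library reads 3′ ends and the values are not per length, so levels of different genes stand side by side as numbers of UMIs and not as a ranking of transcription.

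The targeted gene was checked first. *Trim28* was at 22.7 and 25.6 CPM in PT-like cells of the *Trim28*Δ/Δ mice and at 59.2 and 76.6 CPM in the controls, and in ErPT-like cells at 24.9 and 29.3 against 96.9 and 119 CPM. Stroma-like cells, which lie outside the Six2-cre lineage, had 104 and 99.3 against 84.6 and 112 CPM. Part of the 3′ end of the transcript lies outside the deleted exons, so the tags do not measure the deletion itself. Control mouse 3 stood apart from the other mice. In its PT-like cells *Mt1*, a metal- and stress-induced metallothionein, was at 4611 CPM, against 352 to 629 CPM in the others, and in its ErPT-like cells the stress gene *Ddit3* was at 75.1 CPM against 14.3 to 21.4 CPM. Values without this mouse are given beside the results that rest most on it.

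The members occupy 4 chromosomes (GRCm38, GENCODE M21). *Slc22a8* (chromosome 19, 8591254-8611835, plus strand) and *Slc22a6* (chromosome 19, 8618039-8628299, plus strand) are head-to-tail neighbours with 6203 bp and no protein-coding gene between them. *Slc22a19* (7673061-7711310, minus strand) and *Slc22a12* (6535845-6543032, minus strand) lie on the same chromosome, and *Slc22a26* to *Slc22a30* separate *Slc22a19* from *Slc22a8*. *Slc22a5* (chromosome 11, 53864542-53891660) and *Slc22a4* (53983123-54028090), both on the minus strand, enclose only *Slc22a21*. *Slc22a2* (12584132-12628488, plus strand) and *Slc22a7* (46432183-46438457, minus strand) lie far apart on chromosome 17, and *Slc22a13* (119192974-119209098, minus strand) lies on chromosome 9. On the same strand *Slc22a13* overlaps *Slc22a14*, and *Slc22a19* overlaps *Gm15967* and *Gm15968*, so reads in these shared stretches could belong to either gene. *Slc22a12* overlaps *Nrxn2* in antisense only. *Slc22a14* itself had only 3 UMIs in PT-like cells.

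RefSeq promoters (GRCm38.p6) were found for 8 of the 9 members, all but *Slc22a7*. The 120 bases before the start site are printed for 6 of them, the adjacent pair *Slc22a6* and *Slc22a8*, *Slc22a13* and *Slc22a19*, whose windows hold no CpG, and the pair of carnitine carrier type, *Slc22a4* and *Slc22a5*. Each reads 5′ to 3′ on the strand of its gene, and capitals mark CG, the dinucleotide CpG.
Slc22a6 (chr19:8617876-8617995, plus strand): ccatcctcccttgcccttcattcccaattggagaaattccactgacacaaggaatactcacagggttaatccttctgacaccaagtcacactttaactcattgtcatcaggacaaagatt
Slc22a8 (chr19:8593062-8593181, plus strand): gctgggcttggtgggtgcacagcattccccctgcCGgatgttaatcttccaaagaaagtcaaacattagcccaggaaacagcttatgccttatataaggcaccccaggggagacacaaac
Slc22a13 (chr9:119209106-119209225, minus strand): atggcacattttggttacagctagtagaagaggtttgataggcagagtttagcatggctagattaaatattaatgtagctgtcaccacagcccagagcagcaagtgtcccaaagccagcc
Slc22a19 (chr19:7711311-7711430, minus strand): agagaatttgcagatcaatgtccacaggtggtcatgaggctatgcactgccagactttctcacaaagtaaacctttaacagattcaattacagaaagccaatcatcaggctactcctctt
Slc22a4 (chr11:54028105-54028224, minus strand): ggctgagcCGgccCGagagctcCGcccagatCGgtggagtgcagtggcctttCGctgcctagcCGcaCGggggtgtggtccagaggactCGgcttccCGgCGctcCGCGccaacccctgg
Slc22a5 (chr11:53891704-53891823, minus strand): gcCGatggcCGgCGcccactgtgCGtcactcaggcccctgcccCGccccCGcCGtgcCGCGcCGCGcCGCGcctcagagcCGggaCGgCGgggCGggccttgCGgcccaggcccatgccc

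Base composition separated the members. Over the 300 bases around the start site (250 before and 50 after), the windows of *Slc22a5* and *Slc22a4* held 72.7% and 69.0% G and C with 34 and 29 CpG, whereas the other 6 held between 37.7% and 55.0% with 0 to 8 CpG (median of all promoters 52.7% and 7 CpG). *Slc22a13* and *Slc22a19* had none. In the 120 bases printed, *Slc22a5* had 18 CpG and *Slc22a4* 12, against 1 in *Slc22a8* and 0 in *Slc22a6*. The RefSeq start of *Slc22a8* lies inside the GENCODE gene, so its window does too. The HNF4 motif CAAAGTCCA, searched on both strands of the 300 bases, was found in 0 of the 8 members and in 0.475% of all 32851 promoters. An exact sequence this rare was unlikely to be found in 8 promoters, so its lack does not show that HNF4 sites are absent.

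Every member had its highest level in PT-like cells among 16 named classes. The organic anion carriers OAT1 (*Slc22a6*) and OAT3 (*Slc22a8*) were at 417 and 90.8 CPM there, over the 4 mice pooled. The cation carrier OCT2 (*Slc22a2*) reached 187 CPM, the urate carriers URAT1 (*Slc22a12*) and OAT10 (*Slc22a13*) 70.8 and 97.3 CPM, and *Slc22a19*, a rodent organic anion carrier (OAT5), 213 CPM. The other 3 members gave few UMIs, with *Slc22a5* (the carnitine carrier OCTN2) at 4.35 CPM, *Slc22a4* (OCTN1, which carries ergothioneine) at 2.20 CPM and *Slc22a7* (OAT2) at 1.90 CPM. ErPT-like cells came next for the other 6, called abundant here for their number of UMIs, at 56.4 CPM for *Slc22a6*, 21.4 for *Slc22a19*, 20.3 for *Slc22a8*, 14.2 for *Slc22a12*, 12.1 for *Slc22a2* and 9.38 for *Slc22a13*. The lowest PT-like mouse lay above the highest ErPT-like mouse for each of these 6, as in *Slc22a12* (56.6 against 16.9 CPM). The ratio of PT-like to ErPT-like cells was lowest for *Slc22a8* (4.47) and *Slc22a12* (4.97) and highest for *Slc22a2* (15.4). Mouse 3 gave 430 of the 798 ErPT-like cells, and without it the ratio was 27.8 for *Slc22a2*, 19.2 in place of 10.4 for *Slc22a13* and 17.1 in place of 9.97 for *Slc22a19*, with *Slc22a8* (4.66) and *Slc22a12* (6.55) still lowest of the 6.

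PT-like cells made up 11.7% of the assigned cells and held 84.8% of the UMIs of *Slc22a2*, 80.4% of *Slc22a19*, 79.9% of *Slc22a6*, 77.9% of *Slc22a13*, 71.4% of *Slc22a8* and 70.6% of *Slc22a12*. *Slc22a7* had 44 of its 51 UMIs there. Only 54.3% of the *Slc22a4* UMIs and 31.6% of the *Slc22a5* UMIs fell in PT-like cells, a smaller part than for any other member.

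**Figure D1:**
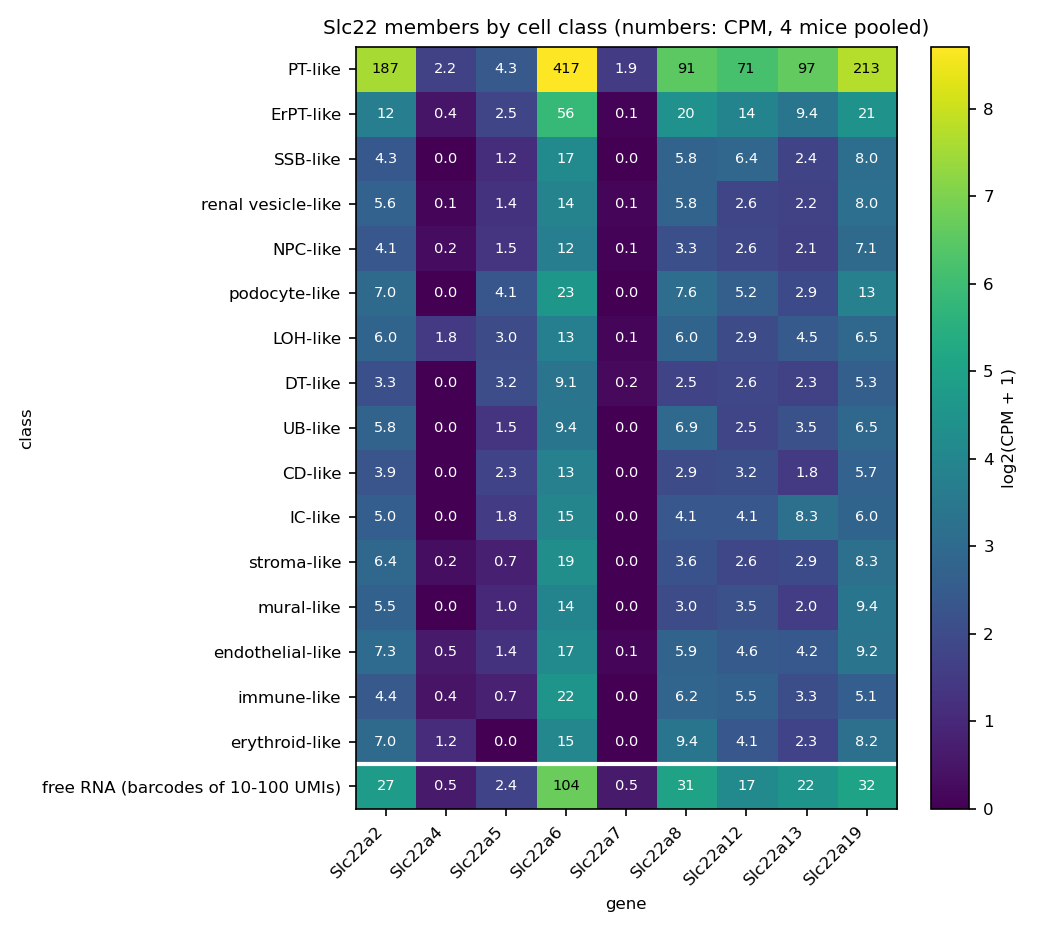
Level of each member (columns) in 16 named cell classes (rows, 4 mice pooled) and in free RNA from near-empty barcodes (last row); colour gives log2(CPM + 1) and the printed numbers give CPM. The PT-like row holds the highest value of each column, such as 417 CPM of *Slc22a6*, and the ErPT-like row comes next for the 6 abundant members.

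In droplet data free RNA gives UMIs in cells that do not express a gene. In 353040 barcodes with 10 to 100 UMIs it held 104 CPM of *Slc22a6* and 32.0 CPM of *Slc22a19*, but only 2.36 CPM of *Slc22a5* and 0.545 CPM of *Slc22a4* and of *Slc22a7*. These barcodes come from the whole pool, which also held 4500 cells with a tag outside those of the 4 mice. From markers of foreign cell types, free RNA was estimated at 8.54% of the UMIs in PT-like and 7.91% in ErPT-like cells, which predicts 8.86 and 8.21 CPM of *Slc22a6*, far below the measured levels. In the other 14 classes *Slc22a6* stood between 9.12 (distal tubule-like) and 23.3 CPM (podocyte-like). In endothelial-like cells, which should lack it, 16.9 CPM were measured and 17.9 CPM predicted. PT markers were among those used for the estimate in classes outside the nephron, so this match is not independent of them. The measured level was also close to the prediction in loop of Henle-like cells (0.97 times), but the match was looser in some other classes. There *Slc22a6* was at 0.57 times the prediction in ureteric bud-like, 0.62 times in immune-like and 2.04 times in nephron progenitor-like cells. With every cell thinned to 6800 UMIs, *Slc22a6* was seen in 79.2% of PT-like, 25.9% of ErPT-like, 11.6% of endothelial-like and 14.6% of immune-like cells (92.7%, 44.4%, 19.4% and 20.5% without thinning, at median depths of 23567, 17029.5, 12430.5 and 13535 UMIs). The thinned shares in PT-like and endothelial-like cells were 67.3% and 3.94% for *Slc22a19*, 56.3% and 5.38% for *Slc22a2*, 39.1% and 5.02% for *Slc22a8*, 35.8% and 2.33% for *Slc22a12*, and 32.8% and 2.15% for *Slc22a13*. For these 6, only classes with at least 10 UMIs of the gene were counted. The level was over 2-fold above the prediction in only 1 to 4 of the 14 other classes. One case was *Slc22a12* in S-shaped body (SSB)-like cells, at 6.41 CPM (108 UMIs) where free RNA predicts 1.35 CPM. That cluster had 6 SSB markers raised, but its 10 leading genes were proliferation and histone genes such as *Ube2c*, *Cenpf* and *Top2a*, and renal vesicle markers scored next.

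Most PT-like cells had UMIs of several of the carriers at once. Of 862 cells, 222 (25.8%) had a UMI of all 6 abundant members, 283 had 5 of them, 184 had 4, and a single cell had none. These counts rise with depth and are not a measure of absence. Free RNA adds to them too, as *Slc22a6* alone had a UMI in 19.4% of endothelial-like cells.

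The 2 OCTN genes had some signal of their own elsewhere. *Slc22a4* had 21 UMIs in loop of Henle (LOH)-like cells, 1.81 CPM where free RNA predicts 0.07 CPM, at 0.43, 1.62, 2.77 and 1.65 CPM in mice 1 to 4. Its PT-like values, 2.88, 2.33, 1.83 and 1.37 CPM, overlap these, so the order of the classes is within the spread between mice. A small endothelial-like cluster of 78 cells had 5 UMIs (4.84 CPM), the highest value of *Slc22a4* in any single cluster. *Slc22a5* was above its free RNA prediction in most classes. It was at 4.08 CPM in podocyte-like cells, from only 7 UMIs (13.1, 0, 1.17 and 5.02 CPM in mice 1 to 4). Levels were 3.16 CPM in distal tubule-like, 3.02 in LOH-like, 2.53 in ErPT-like and 2.34 CPM in collecting duct-like cells. In all of these classes, where free RNA predicts 0.19 to 0.36 CPM, the level was higher than predicted. The PT-like level of 4.35 CPM is not set apart from the levels of these classes. Podocyte-like cells were highest once free RNA was subtracted, at the lower clustering resolution of 0.4, or without likely doublets. *Slc22a7* gave 0 or 1 UMI in each class other than PT-like cells.

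Genotypes were compared on counts summed per mouse, with edgeR's quasi-likelihood test and Benjamini-Hochberg adjustment over all genes tested. No member passed the threshold of 0.05 in PT-like cells, 0 of 9, where 66 of 12208 genes (0.541%) did. Without adjustment 2 of the 9 had a p under 0.05, against 10% of all genes. Log2 changes (*Trim28*Δ/Δ minus *Trim28*f/f) ran from −0.58 to 0.75, with a median of 0.25 over the members and −0.00 over all genes. Levels did not overlap between genotypes in 3 of 9 members (40.5% of all genes), of which 2 were higher and 1 lower in *Trim28*Δ/Δ.

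Among the organic anion carriers, *Slc22a6* was at 431 and 385 CPM in the *Trim28*Δ/Δ mice and at 424 and 437 CPM in the controls. These values overlap, and the log2 change of −0.08 ± 0.11 (SE, n = 2 against 2) had a 95% interval from −0.34 to 0.17. *Slc22a8* was at 78.9 and 76.5 CPM against 144 and 87.6 CPM. Both *Trim28*Δ/Δ mice lay below both controls, but the high value belongs to mouse 3, and the log2 change of −0.58 ± 0.21 was not called (edgeR adjusted p = 0.399). Without mouse 3 it was −0.17. *Slc22a19* was at 238 and 196 against 204 and 210 CPM, which overlap, with a log2 change of 0.06 ± 0.13. *Slc22a7* was at 3.74 and 0.82 against 0.78 and 1.76 CPM, from 3 to 26 UMIs a mouse, and mouse 1 alone was high.

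The cation carrier *Slc22a2* was at 221 and 173 CPM against 171 and 174 CPM. The groups overlap, with a log2 change of 0.19 ± 0.14 (95% interval −0.14 to 0.51), and here too mouse 1 was highest. Of the urate carriers, *Slc22a12* was at 83.5 and 70.3 against 56.6 and 64.9 CPM, with no overlap and a log2 change of 0.33 ± 0.14 (edgeR adjusted p = 0.497). *Slc22a13* was at 126 and 89.8 against 51.9 and 103 CPM, where mouse 1 was highest, mouse 3 lowest and the groups overlapped. Its spread between mice (2.43-fold) was the widest of the 6 abundant members, whereas that of *Slc22a6* was 1.13-fold. The OCTN genes were at 4.17 and 5.06 against 3.13 and 4.49 CPM (*Slc22a5*, overlapping) and at 2.88 and 2.33 against 1.83 and 1.37 CPM (*Slc22a4*, not overlapping, from 7 to 20 UMIs a mouse). Without mouse 4, *Slc22a8*, *Slc22a12* and *Slc22a13* were called in PT-like cells, with mouse 3 as the only control, and 14.7% of all genes were called in that fit.

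**Figure D2:**
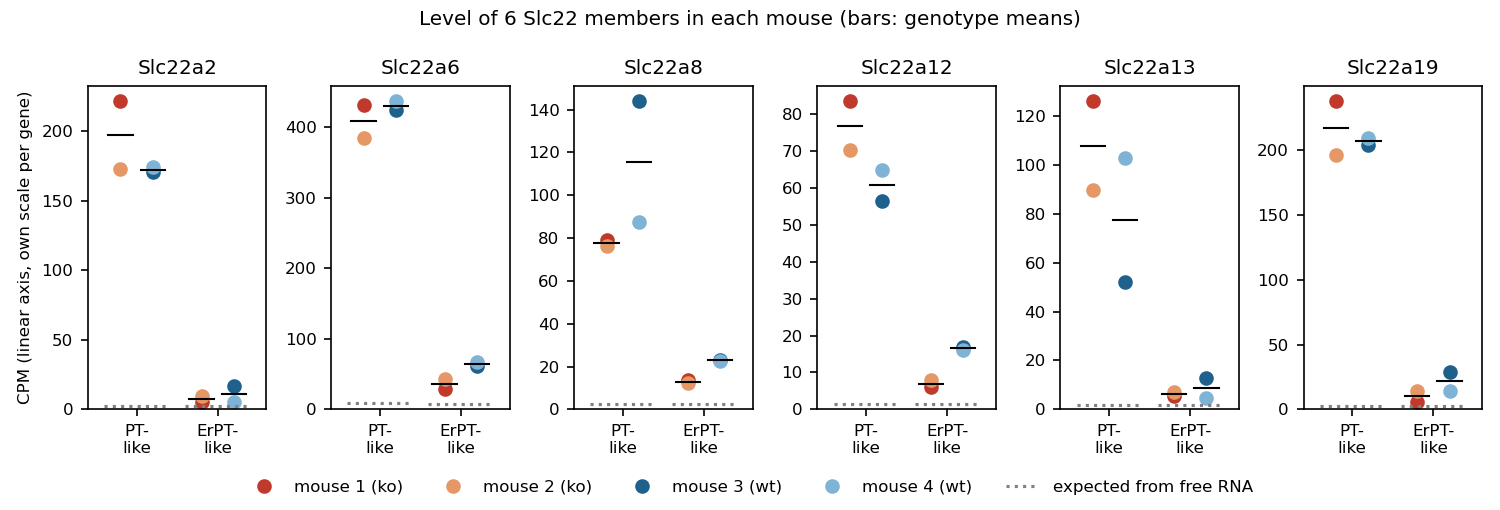
Level of the 6 abundant members in each of the 4 mice (points; CPM, linear axis with its own scale per gene) in PT-like and ErPT-like cells, with genotype means (bars, n = 2 mice each) and the level predicted from free RNA (dotted). *Trim28*Δ/Δ and control points overlap in PT-like cells for *Slc22a2*, *Slc22a6*, *Slc22a13* and *Slc22a19*, and in ErPT-like cells both *Trim28*Δ/Δ points lie below both controls for *Slc22a6*, *Slc22a8* and *Slc22a12*.

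ErPT-like cells gave lower estimates in *Trim28*Δ/Δ for all 6 members that could be tested, but none was called, where 41 of 11369 genes (0.361%) were. *Slc22a12* was at 6.03 and 7.83 CPM in the *Trim28*Δ/Δ mice and at 16.9 and 16.1 CPM in the controls. The genotypes did not overlap, and the log2 change was −1.24 ± 0.32 (95% interval −1.95 to −0.52, edgeR adjusted p = 0.305). *Slc22a6* was at 28.6 and 43.3 against 60.9 and 67.1 CPM (−0.81 ± 0.22, edgeR adjusted p = 0.384). *Slc22a8* was at 13.6 and 12.4 against 23.1 and 22.6 CPM (−0.85 ± 0.26, edgeR adjusted p = 0.50). Without mouse 3 the changes were −1.14 for *Slc22a12*, −0.79 for *Slc22a8* and −0.81 for *Slc22a6*, of which the last was then called (edgeR adjusted p = 0.0032), as were 1.72% of all genes. Mouse 4, then the only control, also differed from mice 1 and 2 in its mix of ErPT-like cells, described below. With both controls, neither *Slc22a6* nor *Slc22a8* overlapped, which makes 3 of 6 with both *Trim28*Δ/Δ mice below both controls, against 17.5% of all genes. The median over the 6 was −0.83, against −0.01 over all genes, and 4 of 6 had an unadjusted p under 0.05 (7.09% of all genes).

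The remaining ErPT-like members overlapped between genotypes. *Slc22a19* was at 6.03 and 14.4 against 29.2 and 13.9 CPM, *Slc22a2* at 5.28 and 9.48 against 16.8 and 5.49 CPM, and *Slc22a13* at 5.28 and 7.0 against 12.8 and 4.52 CPM. In each of these mouse 3 alone was high, and without it *Slc22a2* and *Slc22a13* changed sign, to 0.55 and 0.51, and *Slc22a19* went from −1.05 to −0.27. With cells assigned by their highest tag share, an alternative chosen after seeing the data, *Slc22a12* (0.13), *Slc22a19* (0.60), *Slc22a2* (1.0) and *Slc22a13* (1.23) had estimates above 0, and that of *Slc22a6* was −0.95. Sums of the *Trim28*Δ/Δ mice rest on few UMIs, 8 and 19 for *Slc22a12* and 38 and 105 for *Slc22a6*.

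The ErPT-like cells of mouse 3 also differed in kind. At a finer clustering (resolution 1.2) the class split into a cluster of 495 cells and one of 294 cells led by *Igfbp1*, *Sult1d1* and metallothioneins. The larger held 76, 105, 189 and 125 cells of mice 1 to 4 and the smaller 5, 12, 242 and 35. Pooled levels were higher in the smaller, at 103 against 29.2 CPM for *Slc22a6*, 37.8 against 10.9 for *Slc22a8* and 20.8 against 9.31 for *Slc22a12*. In mouse 2 the smaller had *Slc22a6* at 115 CPM, against 92.0 and 146 CPM in the controls. *Slc22a8* was at 38.3 against 33.9 and 53.9 CPM, and *Slc22a12* at 6.97 against 23.7 and 11.8 CPM. Values of the whole class carry this mix, whose part was not tested. Leaving out mouse 3 does not remove the mix, as mouse 4 had 35 cells in the smaller and 125 in the larger cluster. Mice 1 and 2 had 5 and 12 cells in the smaller and 76 and 105 in the larger. In the larger cluster *Slc22a6* was at 24.1 and 28.6 against 22.9 and 41.1 CPM, which overlap, with a log2 change of −0.23 ± 0.31. *Slc22a8* overlapped there too, at 12.5 and 7.81 against 11.1 and 12.3 CPM (−0.24 ± 0.37). *Slc22a12*, at 6.66 and 5.21 against 7.82 and 16.1 CPM, did not overlap (−0.99 ± 0.48). None of the 5 members tested there was called (0.432% of all genes were), a comparison chosen after seeing the data. Markers of the convoluted proximal tubule also had lower values in the ErPT-like class as a whole. *Gatm*, *Slc4a4*, *Slc5a12* and *Slc2a2* were lower in each *Trim28*Δ/Δ mouse than in either control (17.5% of all genes were). Their log2 changes were −0.94, −0.57, −1.25 and −0.36, and 0 of the 5 tested were called. The fifth, *Slc5a2*, passed the filter on low counts only through the controls (3.01 and 2.06 against 4.39 and 5.49 CPM). The 4 straight tubule markers tested also had estimates below 0, with a median of −0.42, none with genotypes apart and 0 called. Their part in the members' values was not tested.

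Whether a change differed between PT-like and ErPT-like cells was tested with an interaction term in a fit blocked by mouse, which called 11 of 12749 genes (0.0863%) and no member. The log2 change in PT-like cells exceeded that in ErPT-like cells by 1.54 ± 0.29 for *Slc22a12* (edgeR adjusted p = 0.169) and by 0.70 ± 0.21 for *Slc22a6* (edgeR adjusted p = 0.536). For *Slc22a8* the difference was 0.24 ± 0.28. Without mouse 4, 5 members were called in this test, as were 4.1% of all genes.

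**Figure D3:**
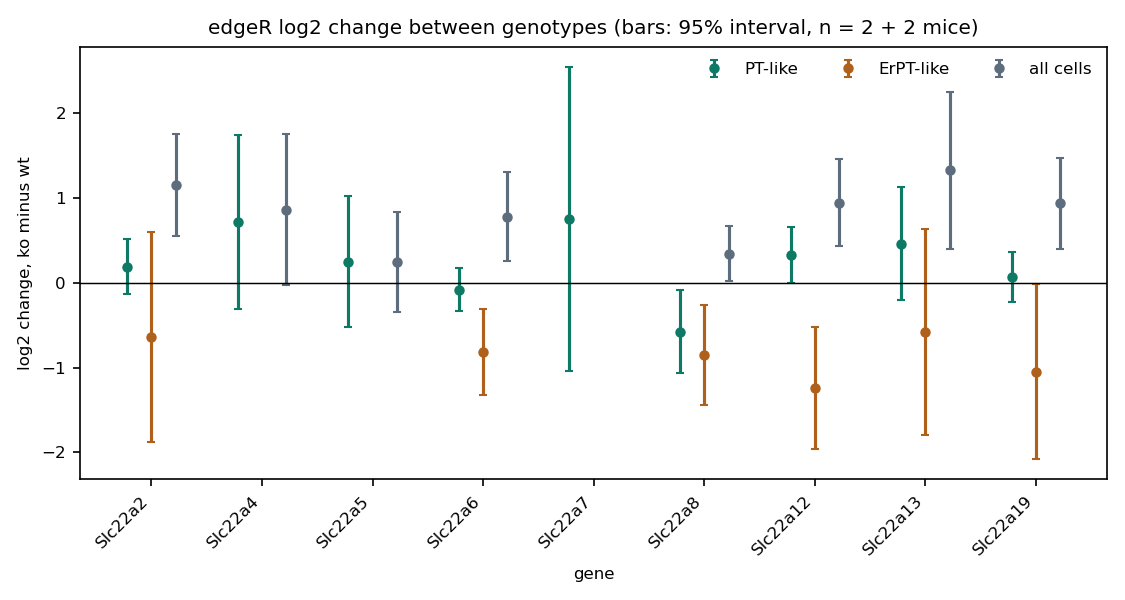
edgeR log2 change (*Trim28*Δ/Δ minus *Trim28*f/f, y axis) of each member tested in PT-like cells, ErPT-like cells and all cells of a mouse summed (colours), with 95% intervals (bars, 2 against 2 mice). PT-like estimates lie between −0.58 and 0.75, all 6 ErPT-like estimates lie below 0 and all 8 estimates over all cells lie above 0, with no member past the adjusted threshold.

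Members were also testable in 9 of 15 other classes or single clusters, in 31 tests with a log2 change between −1.73 and 0.66. None was called (0.299% of all genes were, over these classes), and the smallest edgeR adjusted p was 0.705. The lowest change, of *Slc22a19* in ureteric bud-like cells, rests on 2 and 3 UMIs against 18 and 11 in the controls. The gene passed the filter on low counts only through the controls, and its pooled 6.54 CPM there is near the 5.10 CPM predicted from free RNA. Of the 31 levels tested, 20 were within 2-fold of what free RNA predicts or below it. The other 11 were all in nephron progenitor (NPC)-like, renal vesicle-like and SSB-like cells, where 11 of 12 lay over 2-fold above the prediction, as in *Slc22a19* at 7.14 CPM against 1.84 CPM predicted in NPC-like cells. The predicted share of free RNA was lower there, 5.77% in NPC-like against 17.3% in endothelial-like cells. Levels of *Slc22a2*, *Slc22a6*, *Slc22a8* and *Slc22a19* in these classes did not exceed those in endothelial-like cells (9.25 CPM for *Slc22a19*). *Slc22a12* in SSB-like cells did, at 6.41 against 4.57 CPM.

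Summed over all cells of a mouse, the members were higher in *Trim28*Δ/Δ. For all 8 that could be tested, both *Trim28*Δ/Δ mice lay above both controls (29.3% of all genes did), with log2 changes from 0.24 (*Slc22a5*) to 1.32 (*Slc22a13*) and a median of 0.89. Over the alternative fits the change of *Slc22a13* ran from 0.87 to 1.96 and that of *Slc22a5* from 0.22 to 0.27. *Slc22a2* was at 63.5 and 45.7 against 19.5 and 28.4 CPM, *Slc22a6* at 127 and 103 against 52.9 and 77.6 CPM, and *Slc22a13* at 38.5 and 27.0 against 8.16 and 17.4 CPM. None passed the threshold, however, where 31 of 16529 genes (0.188%) did, and the smallest edgeR adjusted p was 0.125 for *Slc22a2*. With DESeq2, without the filter on low counts, without mouse 3 or without mouse 4, *Slc22a2*, *Slc22a6*, *Slc22a12*, *Slc22a13* and *Slc22a19* were called. In these fits 3.73%, 4.37%, 11.7% and 27% of all genes were called, in the same order. The share of PT-like cells moved the same way, at 20.2% and 18.3% in the *Trim28*Δ/Δ mice against 5.38% and 9.53% in the controls. The difference of 11.8 percentage points had an exact permutation p of 0.333, two-sided, which is the smallest that 2 against 2 mice allow. In such sums, more PT-like cells and more transcript per cell cannot be told apart. The values given above for PT-like cells are per UMI of those cells and do not carry this share. They do carry the mix of finer clusters within the PT-like class, described next.

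PT-like cells themselves were not uniform in their carriers. At resolution 1.2 they formed a first cluster of 585 cells, all from the PT-like class, and a second of 422 cells, of which 272 came from that class, 136 from an unnamed cluster and 14 from the ErPT-like class. In the second cluster 6 PT markers were raised, none was among its 10 leading genes, and its ErPT score (0.596) was close to its PT score (0.70). The first was high in convoluted tubule markers, with *Slc5a2* (the glucose carrier SGLT2) at 16.1 against 0.52 CPM in the second and *Gatm* (creatine synthesis) at 824 against 94.2 CPM. Straight tubule markers differed less, with *Slc7a13* at 95.7 and 94.1 CPM. Of the members, *Slc22a6* was at 521 CPM in the first and 109 CPM in the second, *Slc22a8* at 114 and 21.6 CPM, and *Slc22a2* at 221 and 72.7 CPM. *Slc22a6* and *Slc22a8* were higher in the first cluster in all 4 mice, *Slc22a2* in 3 of 4.

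The urate carriers did not follow this order. *Slc22a12* was at 69.7 and 58.1 CPM and higher in the first cluster in 2 of 4 mice, which were the 2 *Trim28*Δ/Δ mice. *Slc22a13* was at 84.1 CPM in the first and 111 CPM in the second, and higher in the second in 3 of 4 mice. It was among the 10 leading genes of the second cluster. *Slc22a19*, at 231 and 123 CPM, was higher in the first cluster in all 4 mice, by a smaller ratio (1.87) than *Slc22a6* (4.80). In the unnamed cluster of 137 cells (53, 62, 2 and 20 by mouse) *Slc22a13* was at 67.4, *Slc22a19* at 28 and *Slc22a12* at 22.2 CPM, whereas *Slc22a6* was at 11.8 CPM, about the 12.1 CPM that free RNA predicts. These comparisons of clusters are descriptions without a test.

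**Figure D4:**
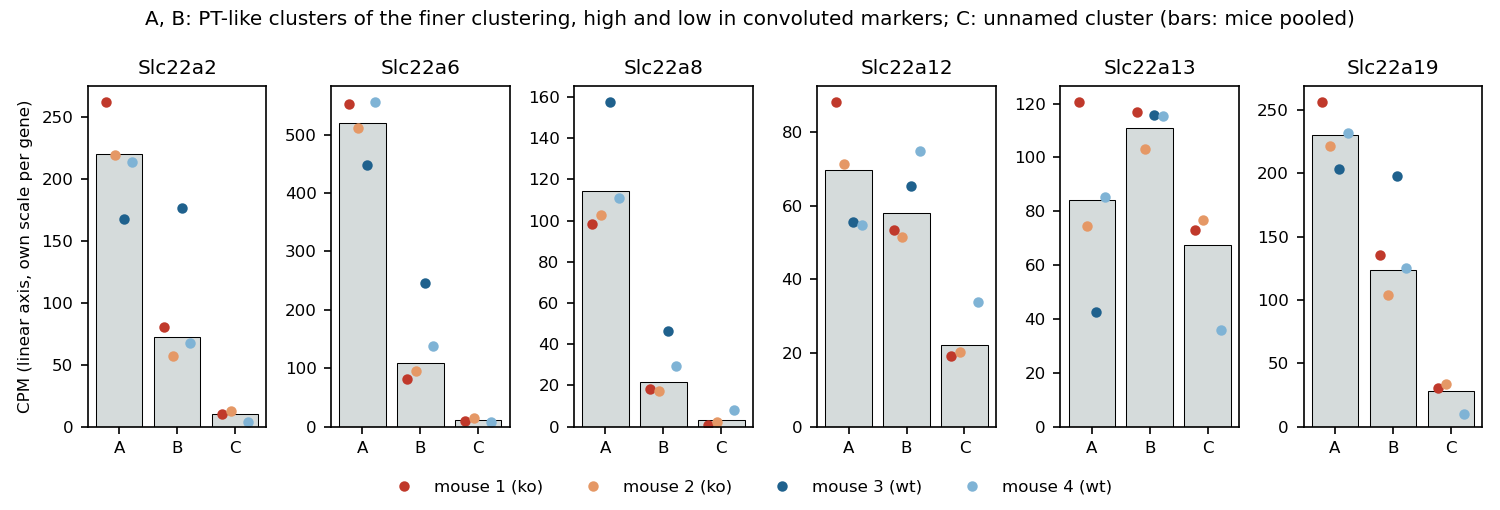
Level (CPM, linear axis with its own scale per gene) of the 6 abundant members in the first (A) and second (B) PT-like cluster of the finer clustering and in an unnamed cluster (C), most of whose cells joined B at that resolution; bars pool the mice and points are single mice (no point for mouse 3 in C, which had 2 cells there). *Slc22a6* and *Slc22a8* are at 521 and 114 CPM in A and at 109 and 21.6 CPM in B, while *Slc22a13* is at 84.1 and 111 CPM.

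The second cluster took in 10.7% and 11.8% of *Trim28*Δ/Δ cells by mouse but 0.631% and 4.68% of control cells, the lowest of these from only 17 cells of mouse 3. There the *Trim28*Δ/Δ mice lay below the controls for *Slc22a6* (82.2 and 95.8 against 246 and 138 CPM), *Slc22a8* (18.1 and 17.2 against 46.3 and 29.3 CPM) and *Slc22a12* (53.6 and 51.5 against 65.3 and 74.8 CPM), 3 of 6 members tested against 16.2% of all genes. None was called (0.335% of all genes were), and the log2 change of *Slc22a6* was −1.03 ± 0.24 (edgeR adjusted p = 0.219). Without mouse 3 the changes were −0.66 for *Slc22a6*, which was then called (edgeR adjusted p = 0.00254) with 2.81% of all genes, −0.76 for *Slc22a8* and −0.54 for *Slc22a12*. *Slc22a13* was nearly level, at 117 and 103 against 116 and 115 CPM. In the first cluster *Slc22a6* was at 553 and 512 against 448 and 556 CPM, and *Slc22a12* at 88.1 and 71.3 against 55.7 and 54.7 CPM (log2 change 0.52 ± 0.16, edgeR adjusted p = 0.245). *Slc22a8* was at 98.4 and 103 against 157 and 111 CPM (−0.42 ± 0.17, edgeR adjusted p = 0.424; −0.14 without mouse 3). The genotypes did not overlap in 4 of 8 members, 3 higher and 1 lower in *Trim28*Δ/Δ (40.5% of all genes did not). Among the higher was *Slc22a2*, which overlapped in the whole PT-like class, at 262 and 219 against 168 and 214 CPM (0.33 ± 0.16). None of the 8 members tested in the first cluster was called (0.569% of all genes were). Without mouse 3 the change of *Slc22a12* was 0.55 and was called (edgeR adjusted p = 0.00666), as were 4.25% of all genes.

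The interaction of genotype and cluster called 6 of 11886 genes (0.0505%) and no member. The log2 change in the first cluster exceeded that in the second by 1.01 ± 0.21 for *Slc22a12* (edgeR adjusted p = 0.302) and by 1.10 ± 0.29 for *Slc22a6* (edgeR adjusted p = 0.581). These differences too carry the cells of the unnamed cluster within the second. Without mouse 3 this test called 2 members and 1.62% of all genes, and without mouse 4 it called 4 members and 3.47% of all genes.

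Genes with a pattern like that of a member over the 23 clusters were sought by Pearson's correlation of log2(CPM + 1) among 10609 genes, with mice pooled. Clusters share free RNA and a single library, so these values are descriptions. *Slc22a6* was most like *Spp2* (r = 0.97), *Slc34a1* (the phosphate carrier of the proximal tubule, 0.97) and *Nat8f1* (0.96). *Slc22a8* was most like *Spp2* (0.94), *Slc5a12* (a lactate carrier, 0.93) and *Acsm2* (0.93), and *Slc22a12* most like *Pdzk1* (0.98), which encodes a scaffold of apical carriers, *Aspa* (0.97) and *Tmem174* (0.97). For *Slc22a2* the leading genes were *Fbp1* (gluconeogenesis, 0.97), *Slc22a19* (0.96) and *Nat8f1* (0.96). *Slc22a19* itself went with *Fbp1* (0.98) and *Pck1* (0.96). *Slc22a13* had a set of its own, *Ttr* (0.96), *Slc3a1* (0.95) and *Slc7a13* (0.95), of which *Slc3a1* and *Slc7a13* encode parts of amino acid carriers.

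Of 14 other *Slc22* genes, 2 reached 20 CPM in PT-like cells, *Slc22a30* at 56.8 and *Slc22a29* at 27.0 CPM. None of the 10 tested there passed edgeR's adjusted threshold, with a median log2 change of 0.08. An unadjusted p under 0.05 was found for 2 of them, against 10% of all genes. These 2 lay on opposite sides. *Slc22a26* was at 2.16 and 1.23 CPM in the *Trim28*Δ/Δ mice and at 4.70 and 4.29 CPM in the controls (log2 change −1.40 ± 0.41, edgeR adjusted p = 0.262). *Slc22a30* was at 69.6 and 58.8 against 38.3 and 50.1 CPM (0.52 ± 0.17, edgeR adjusted p = 0.315). The genotypes did not overlap in either gene, nor in 6 of the 10 tested in all, against 40.5% of all genes. *Slc22a26* had only 64 UMIs in PT-like cells.

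Of 26 genes for partners in organic ion transport, 13 reached 20 CPM in PT-like cells, among them the apical exporters *Abcg2* (345 CPM), *Slc47a1* (163 CPM) and *Abcc2* (92.4 CPM), the phosphate and urate carrier *Slc17a1* (128 CPM) and the scaffold *Pdzk1* (641 CPM). Of 22 tested, 1 rose and 0 fell, with a median log2 change of −0.07. *Slco1a6*, an organic anion-transporting polypeptide of the kidney, rose from 16.2 and 19.1 CPM in the controls to 46.9 and 52.4 CPM, 2.78-fold (log2 change 1.48 ± 0.16, edgeR adjusted p = 0.0095). Its adjusted p reached 0.101 and 0.138 without mouse 1 and without mouse 2, and it was called in every other alternative run.

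No gene of the remaining lists was called in PT-like cells. This holds for 9 tested genes of carnitine synthesis and use (median log2 change 0.06), 8 regulators of proximal transport genes such as *Hnf4a* (−0.0045), 6 convoluted tubule markers (−0.30) and 5 straight tubule markers (−0.08). Levels of all 6 convoluted markers were apart between genotypes (40.5% of all genes were), 4 lower and 2 higher in *Trim28*Δ/Δ, with *Slc5a2* at 9.63 and 7.94 against 18.8 and 14.8 CPM. In ErPT-like cells 0 genes of any list were called. The regulators had a median of −0.34 over 6 tested genes there, the partners one of −0.23 over 18 and the other *Slc22* genes one of 0.05 over 3, whereas that of all genes was −0.01.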

How the data were processed

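Single cells of 4 mouse kidneys, pooled in 1 gene expression and 1 tag library, were analysed; 6 bulk samples were not analysed here. The authors deposited unfiltered counts of UMIs per gene and tag, without normalization, and a list that pairs 4 tags with mouse and genotype; 0 other columns of per-sample values were found. The submitters' processing notes name Cell Ranger 6.0.0, GRCm38 and mm10; which build gave these counts is not stated.

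Cells needed 6890 UMIs, 200 genes and no more than 10% mitochondrial UMIs (19273 passed). HTODemux (Seurat 5.3.0, quantile 0.99) gave each a mouse; 4718 held several tags and were taken as doublets, 2698 held none and 4500 held a tag outside the list. No barcode was repeated. SCTransform and Louvain clustering (30 components, resolution 0.8) gave 23 clusters. Names needed a marker score of 0.5 and 3 markers raised 1.5-fold in 10% of cells, with no other type leading, limits that were chosen with the clusters in view. Scrublet (scanpy 1.11.5) was an alternative.

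Sums per mouse and class (10 cells or more in each mouse) went through filterByExpr and TMM into edgeR 4.0.16 (2 against 2, threshold 0.05); the paper's test takes cells as replicates and was not used. SE is the absolute log2 change over the square root of F, and p-values measure the spread between these mice. Where a mouse was left out, the lone mouse of a genotype was assumed to vary as the pair does. The script was tested on simulated data. DESeq2 1.42.0, other filters, tag assignments and clusterings were alternatives.

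All 9 members are named, with list genes past the threshold in PT-like cells (up to 4 per list and direction) and the 3 most alike genes for each member of at least 20 CPM. Members and lists were chosen with earlier results of these data known. Other genes with values were picked after their values were seen. Some listed and alike genes are not reported here and were left out of the counts of the lists.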

Additional observations from a re-analysis of the deposited data

How the results depend on the processing

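With 2 mice per genotype, calls depended on single mice, and the cause was not tested. In PT-like cells 66 genes were called, 546 without the filter on low counts and 9 to 1899 when a mouse was left out (9 without mouse 1, 13 without mouse 2, 659 without mouse 3, 1899 without mouse 4); members called were 0, then 1 without the filter (*Slc22a8*) and 0 to 3 without a mouse. In ErPT-like cells 41 genes became 66 with the highest tag share, 339 without the filter and 3 to 1746 without a mouse (1746 without mouse 4, 199 without mouse 3); members called were 0, then 3 without the filter and 0 to 6 without a mouse (1 without mouse 3, 6 without mouse 4). Over all cells 31 genes became 647 with DESeq2, 1039 without the filter and 29 to 4551 without a mouse, and 0 members became 5, 5 and 0 to 5. The genotype difference in the share of PT-like cells was 9.72 to 13.9 percentage points when a mouse was left out. Over the other processing settings it ran from 8.63 points with a minimum of 2500 UMIs to 15.6 points at resolution 1.2. The PT-like share of mouse 3 was 8.78% with the minimum of 2500 UMIs, in place of 5.38%. All 9 members were highest in PT-like cells in 5 of 8 other settings and 8 of 9 in the other 3 (*Slc22a5* apart).

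Log2 changes that changed sign in PT-like cells were those of *Slc22a6* (0.094 with the highest tag share, 0.047 with k-means in HTODemux, 0.20 with a minimum of 2500 UMIs), *Slc22a19* (−0.060 and −0.090 at resolutions 0.4 and 1.2, and −0.084 to 0.20 without a mouse) and *Slc22a2* (−0.0038 to 0.36 without a mouse, the lowest values without mouse 1). In the first PT-like cluster they were those of *Slc22a6* (−0.058 to 0.24 without a mouse) and *Slc22a5* (−0.12 to 1.02), both lowest without mouse 3. In ErPT-like cells they were those of *Slc22a2* (1.0 with the highest tag share, −1.16 to 0.55 without a mouse, 0.48 with 2500 UMIs, 0.25 in the larger finer cluster), *Slc22a13* (1.23 with the highest tag share, −1.05 to 0.51 without a mouse, 1.46 with 2500 UMIs, 0.041 with members kept in the clustering), *Slc22a19* (0.60 with the highest tag share, 0.10 with 2500 UMIs) and *Slc22a12* (0.13 with the highest tag share), the highest values without a mouse being those without mouse 3. All other alternatives kept the direction of each member, 112 values in PT-like and 68 in ErPT-like cells with the same call, and 4 and 10 that gained one. Alternatives for ErPT-like cells beyond DESeq2 and leaving out a mouse, and those for all cells, interactions and the 2 PT-like clusters, were chosen after seeing the data.

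No paired analysis was possible because the 4 mice of the pool carry different numbers, and the bulk samples that share replicate numbers were not analysed here. Members with few UMIs have wide intervals in PT-like cells, on the log2 scale −1.04 to 2.54 for *Slc22a7*, −0.31 to 1.74 for *Slc22a4* and −0.52 to 1.02 for *Slc22a5*.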
